A study of Mus musculus with 47 samples.

Results

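The 14-3-3 protein genes Ywhab, Ywhae, Ywhag, Ywhah, Ywhaq and Ywhaz were followed through SLAM-seq libraries of mouse P19 cells. Members were taken by gene symbol, as each mRNA 3′ UTR whose RefSeq name mapped to one of the 6 genes, of 18850 genes with a named mRNA 3′ UTR. They comprised 9 transcripts with 6 distinct 3′ UTR intervals, because 4 Ywhaz transcripts shared 1 interval. The genes were chosen by their reads, labeling and decay slope in both states. Reads, labeling and slopes of these genes are therefore given as descriptions, without a test, between the states and within them.

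P19 is a mouse embryonal carcinoma line, wild type here, that forms neurons when treated with retinoic acid. Undifferentiated cells (D0) were compared with cells kept for 6 days in NDiff 227 medium with 500 nM retinoic acid (D6). In the catabolic assay, cells were labeled with 4-thiouridine (4sU), a uridine analog, which was then removed and replaced by unlabeled UTP. In the anabolic assay, uptake of 4sU was followed from its addition, so that its 0 h libraries had received none. 4sU in RNA is read as C in place of T after alkylation, and the share of covered T positions read as C is the T>C conversion rate. There were 47 libraries, with 3 for each state, assay and time point, except 2 at 6 h of the catabolic assay at D6. Hours are given as 0, 3, 6 and 9 by the series text, which was followed, and as 0, 1, 3 and 9 on the samples. The study's methods give a higher 4sU dose at D6 than at D0, so that state and dose cannot be told apart in any measure of label or in reads of libraries with 4sU.

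14-3-3 proteins are small acidic proteins that form homodimers and heterodimers and bind partners at phosphorylated serine or threonine. Binding can hold a partner in the cytoplasm, cover a site or change its activity, and partners include kinases of the MAPK pathway, cell cycle phosphatases and FOXO and YAP transcription factors. The proteins are abundant in brain, where they act in neuronal migration and signaling.

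Reads on distinct 3′ UTRs ranged from 3447888 to 11677046 per library at D0 and from 1489528 to 7930149 at D6. The share of mapped reads that fell on them was 30.3 to 47.4% at D0 and 15.6 to 33.5% at D6. Neuronal markers summed to 1528 to 1803 CPM (counts scaled to library size) in the D0 libraries without 4sU and to 13516 to 15653 CPM at D6, and 10 of 10 rose. Of 10 markers of undifferentiated cells, 8 were tested and 6 fell, and Dppa5a and Zfp42 had no reads in either state. Markers of glia summed to 138 to 216 CPM at D0 and 125 to 130.1 CPM at D6, with no reads for Gfap, Aqp4, Olig2 and S100b at D6. Endoderm markers summed to at most 8.11 CPM, and mesoderm and muscle markers to at most 148 CPM at D0 and 16.7 CPM at D6. In 6 libraries, reads covered fewer T positions than in the rest, at 21.2 to 22.4 per read against 22.6 to 24.5. These were libraries 26, 56 and 72 at D0 and 16, 18 and 38 at D6.

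The deposited 3′ UTRs lie on mm10, and none overlaps a 3′ UTR of another gene in the files. They are Ywhab at chr2:164016726-164018587 on the plus strand (1862 bases), Ywhae at chr11:75764673-75765841 on the plus strand (1169 bases) and Ywhag at chr5:135908379-135910994 on the minus strand (2616 bases). The others are Ywhah at chr5:33027196-33027966 on the plus strand (771 bases), Ywhaq at chr12:21390329-21391355 on the minus strand (1027 bases) and Ywhaz at chr15:36770261-36772717 on the minus strand (2457 bases). The median over 14426 mRNA transcripts with enough coverage for conversion rates was 1206 bases. T made up 29.9% of the Ywhag interval and 34.8% of the Ywhaz interval, the lowest and highest of the 6, against a median of 29.5% over those transcripts.

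Libraries were primed at the poly(A) tail, so reads should come from near the ends of transcripts. The deposited counts are per whole interval and hold no read positions, so this was not examined. The stretch around the last AATAAA, the polyadenylation signal, of each 3′ UTR is shown for this reason, with the signal in capitals. Sequences are from GENCODE M21 transcripts (GRCm38, the build of mm10), given 5′ to 3′ on the strand of the gene.
Ywhab, chr2:164018556-164018585: aacttaaagtgaAATAAAacattttatcag
Ywhae, chr11:75765598-75765627: ttatacttctaaAATAAAatctctagtcca
Ywhag, chr5:135908410-135908439: tacattgagcaaAATAAActtacagatctg
Ywhah, chr5:33027930-33027959: cttaaaagagtaAATAAAtgctgctttagg
Ywhaq, chr12:21390336-21390365: gagtaacataaaAATAAAactacattttat
Ywhaz, chr15:36770772-36770801: ctgtaaatgctcAATAAAtattgatgatgg

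In 5 of the 6 genes the last AATAAA began 19 to 25 bases before the transcript end. In Ywhae the last one began 236 bases before the end. The Ywhaz transcript ends 509 bases short of the deposited interval, so its signal is that of a shorter 3′ UTR. On the strand of the gene, AATAAA was present in the last 250 bases of 71.8% of 8164 genes, ATTTA in 40.8% and TGTANATA in 10.04%. In the same window, ATTTA occurred 3 times in Ywhae and 1 time in Ywhah and was not found in the other members, and TGTANATA was not found in any of the 6. For Ywhaz this window is that of the shorter transcript. Over the whole GENCODE 3′ UTR, ATTTA occurred 6 times in Ywhaz, 4 times in Ywhae, 3 times in Ywhab and 2 times each in Ywhag, Ywhah and Ywhaq. That 3′ UTR is shorter than the deposited interval in Ywhag, at 724 bases, and in Ywhaz, at 1951 bases, and the rest of these intervals was not searched. A match is a description of the letters only.

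Estimated log2 differences in reads on the 14-3-3 genes between undifferentiated and differentiated cells were small, with SEs of 0.18 (Ywhab) to 0.51 (Ywhah). At this spread, little change cannot be told from larger changes. The log2 difference, D6 minus D0 without 4sU, lay between -0.33 for Ywhae and 0.39 for Ywhag, with 3 genes higher and 3 lower and a median of 0.09, against a median of -0.0025 over all transcripts with reads.

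Ywhae encodes 14-3-3ε, which binds NDEL1 in migrating neurons. Its D0 libraries without 4sU were at 1758, 527 and 1481 CPM and its D6 libraries at 1067, 799.6 and 1122 CPM. The lowest value of each state came from a library with few T positions per read, and the states overlapped through it. The log2 difference was -0.33 (SE 0.27). It was -0.61 (SE 0.23) without the 6 such libraries, and ran from -0.71 without library 56 to -0.09 without library 55.

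Ywhag encodes 14-3-3γ, which is abundant in neurons. Its values were 194, 205 and 187 CPM at D0 and 223.299, 287 and 257 CPM at D6. All D6 libraries were above all D0 libraries, as was so, in one direction or the other, for 29.1% of all transcripts. D6 minus D0 was 0.39 on the log2 scale (SE 0.25).

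Ywhab encodes 14-3-3β, a partner of RAF kinases. It was at 605, 920.5 and 598 CPM at D0 and at 847.5, 922 and 788 CPM at D6, a log2 difference of 0.27 (SE 0.18). Leaving out 1 library gave 0.08 without library 55 to 0.49 without library 56, and it was 0.40 without the 6 libraries of few T positions. Library 56, one of these, lay within the D6 range.

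Ywhaq encodes 14-3-3θ, also called 14-3-3τ, a form first described in T cells and brain. Its values were 149, 61.3 and 122 CPM at D0 and 153, 91.6 and 149.5 CPM at D6, and the log2 difference was 0.24 (SE 0.39). The states overlapped, the lowest library of each was one of few T positions per read, and without library 56, that of D0, the difference was -0.05.

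Ywhaz encodes 14-3-3ζ, a widely expressed form. It was at 384, 513 and 365 CPM at D0 and at 390.4, 443 and 372 CPM at D6, with a log2 difference of -0.07 (SE 0.23), or 0.09 without library 56. Its states overlapped almost wholly.

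Ywhah encodes 14-3-3η, found mainly in brain. Its values were 109.7, 88.2 and 109.7 CPM at D0 and 67.4, 90.7 and 119 CPM at D6, with a log2 difference of -0.15 (SE 0.51), or -0.44 to -0.03 with each library left out. The D6 libraries spread on both sides of those at D0.

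Sfn, which encodes 14-3-3σ, the remaining family member and one restricted largely to epithelia, was barely detected. It had reads in 5 of 24 libraries at D0, with at most 14 reads, and in 12 of 23 libraries at D6, with at most 111 reads. Its coverage was too low for a conversion rate.

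**Figure D1:**
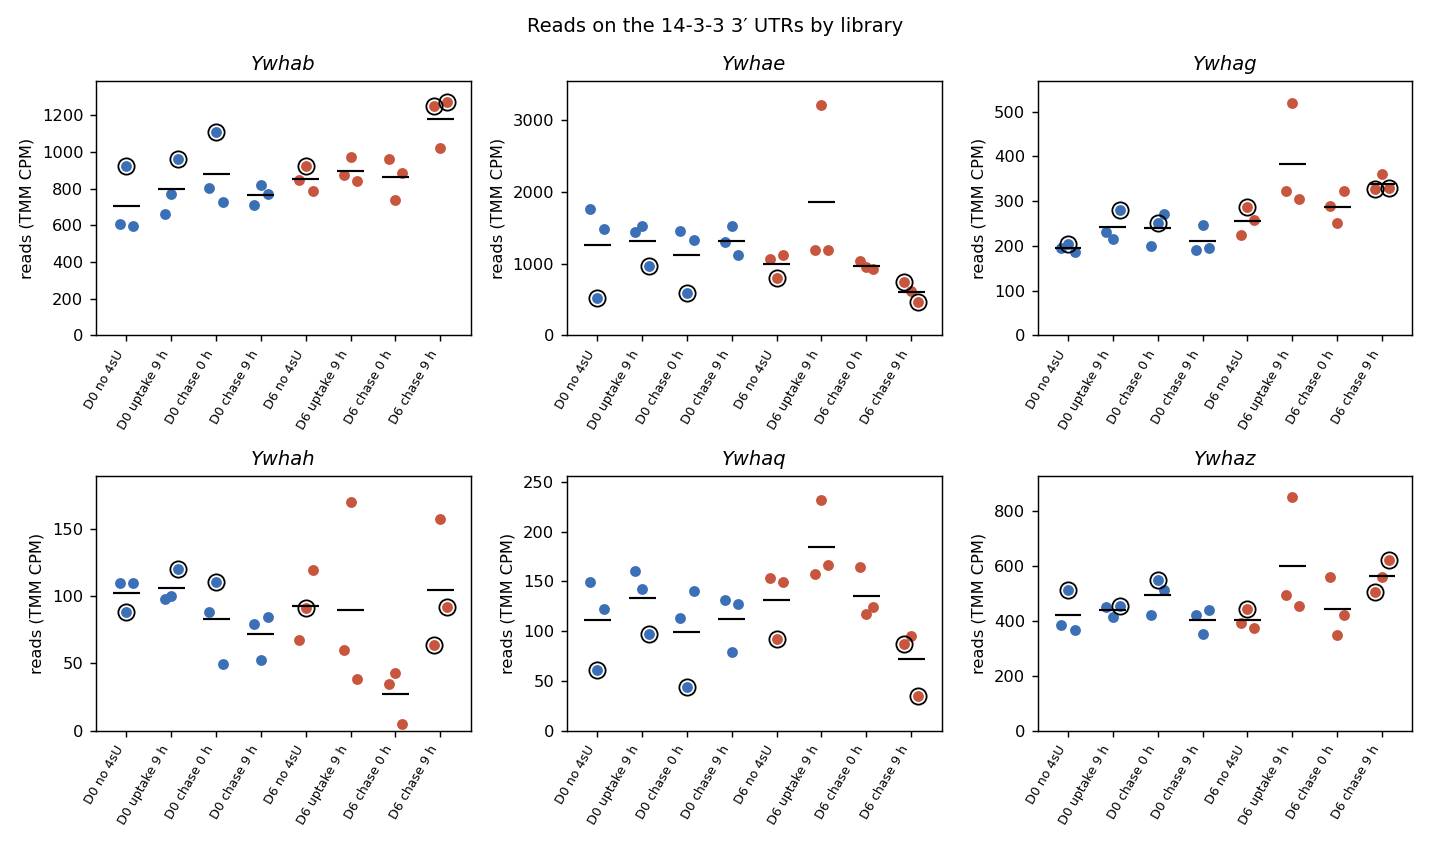
TMM-normalized reads (CPM) of each gene in the libraries without 4sU, after 9 h of uptake, and at 0 and 9 h of the chase, D0 in blue and D6 in red. Each point is a library, lines are means, and circled points are the 6 libraries of few covered T positions per read. A single D6 uptake library reaches 3209 CPM for Ywhae, and the 3 D6 chase 0 h libraries of Ywhah sit at 5.003 to 42.9 CPM.

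Reads of Ywhae and Ywhaq moved with the T positions per read, and those of Ywhab moved the other way. At D0, Ywhae was at 527 to 971 CPM in the 3 libraries of few T positions and at 1117 to 1758 CPM in the other libraries, with no overlap. At D6 the ranges were 463 to 799.6 CPM and 615 to 3209 CPM. Ywhaq was at 43.4 to 96.8 CPM in those libraries at D0 and at 79.03 to 166 CPM in the rest. Ywhab was at 920.5 to 1107 CPM in those libraries at D0 and at 553 to 818 CPM in the rest. Over the 47 libraries, Pearson's r of log2 CPM with T positions per read was 0.74 for Ywhae, 0.62 for Ywhaq and -0.79 for Ywhab, with points that share state, treatment and depth. The part of this in the comparisons of reads was not tested beyond leaving the 6 libraries out.

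**Figure D2:**
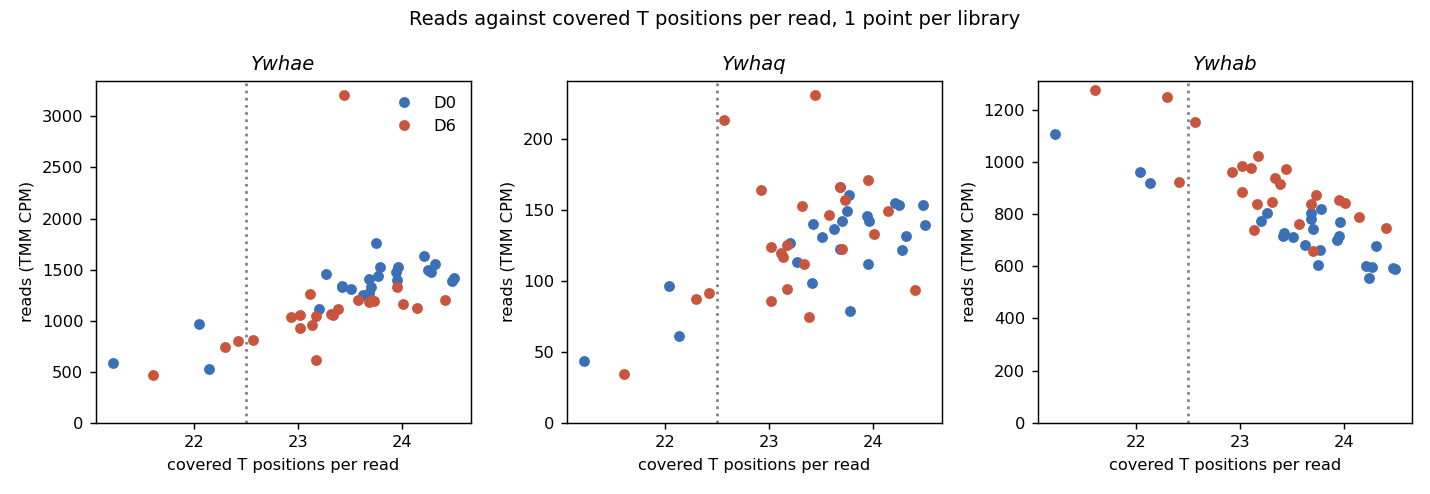
TMM-normalized reads (CPM) against covered T positions per read for Ywhae, Ywhaq and Ywhab, 1 point per library, D0 in blue and D6 in red. The dotted line sets apart the 6 libraries of few T positions, and left of it Ywhae lies at 463 to 971 CPM and Ywhab at 920.5 to 1274 CPM.

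Reads with and without 4sU were compared within each state, on the log2 scale with the SE of edgeR's fit. That SE, also for D6 against D0 above, draws on all 47 libraries and is not the spread of the libraries compared. Fitted to the compared libraries alone, the SE of Ywhae was 0.37 for D6 against D0 and 0.35 for 9 h of uptake at D6. In other cases it was smaller than in the full fit, as 0.15 for Ywhab after full labeling at D6. After the full labeling period at D0, 0 of 6 members had libraries that did not overlap between the groups, against 7.09% of transcripts in either direction. Log2 differences there lay between -0.31 for Ywhah and 0.31 for Ywhab, and leaving out 1 library moved these to between -0.61 and -0.05 for Ywhah and between 0.07 and 0.55 for Ywhab. That of Ywhae was -0.16, and ran from -0.54 without library 56 to 0.15 without library 55.

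At D6, 1 gene stood out in size. Ywhah was at 67.4, 90.7 and 119 CPM without 4sU and at 34.7, 42.9 and 5.003 CPM after labeling. All labeled libraries lay below all unlabeled ones, as was so, in one direction or the other, for 11.3% of transcripts, and the lowest rested on 24 reads. The log2 difference was -1.75 (SE 0.53), and -1.26 without library 9. The other 5 members at D6 differed by -0.03 to 0.17, or -0.17 to 0.28 with each library left out.

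After 9 h of 4sU uptake at D0, differences ran from 0.05 for Ywhah to 0.31 for Ywhag. Only the libraries of Ywhag did not overlap, against 8.75% of transcripts in either direction. With each library left out, Ywhae ran from -0.27 without library 56 to 0.36 without library 55. Ywhaz ran from -0.06 to 0.27 and Ywhah from -0.03 to 0.09. Ywhab, Ywhaq and Ywhag stayed above 0, the last at 0.22 to 0.38. At D6, 5 members were higher and 1 was lower after uptake. The lower one, Ywhah, ran from -0.88 without library 53 to 0.31 without library 54. The median over the members was 0.53, or 0.28 without library 53, against -0.11 over all transcripts with reads.

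At D6, Ywhae was at 1067, 799.6 and 1122 CPM without 4sU and at 1197, 3209 and 1187 CPM after 9 h of uptake. The groups did not overlap, but library 53 stood far above the other uptake libraries. Library 53 was also the shallowest of its group, with 1504166 reads on distinct 3′ UTRs against 4466071 and 3715703. Its T>C rate over all 3′ UTRs was the lowest, at 2.98% against 4.14 and 3.69%. The log2 difference of Ywhae was 0.90 (SE 0.27), but 0.29 without library 53.

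Ywhag went from 223.299, 287 and 257 CPM to 322, 519 and 306 CPM in the same comparison. These groups did not overlap either, and library 53 was again the highest. On the log2 scale Ywhag differed by 0.58 (SE 0.25), and 0.33 without library 53. Ywhaz differed by 0.57 (SE 0.23), or by 0.27 without that library, in which all 6 members were at their highest of the group. Ywhaq went from 153, 91.6 and 149.5 CPM to 157, 231 and 167 CPM, a difference of 0.49 (SE 0.39), or 0.29 without library 38. Ywhab was at 0.07 (SE 0.18). In 4 of the 6 members, Ywhae, Ywhag, Ywhaq and Ywhaz, the groups did not overlap, against 9.67% of all transcripts in either direction.

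Reads over the chase were compared in the same way. At D0, differences between 0 h and 9 h after 4sU removal lay between -0.29 for Ywhaz and 0.22 for Ywhae, and libraries did not overlap for 0 of 6 members, against 11.4% of transcripts. Without library 26, of few T positions per read, 4 of these differences changed sign, to -0.05 for Ywhae, -0.13 for Ywhaq, 0.04 for Ywhab and 0.10 for Ywhah. At D6 the groups did not overlap in 5 members, 3 higher and 2 lower at 9 h, against 16.9% of all transcripts in either direction.

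Ywhah was at 34.7, 42.9 and 5.003 CPM at 0 h and at 63.7, 157 and 92.0 CPM at 9 h. The log2 difference was 1.92 (SE 0.53), and 1.44 without library 9. These 0 h libraries are those of the labeling comparison above, so the 2 differences share them.

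Ywhae was at 1031, 959 and 932 CPM at 0 h and at 741, 615 and 463 CPM at 9 h, all lower. Their log2 difference was -0.68 (SE 0.27). Ywhaq was at 164, 117 and 124 CPM at 0 h and at 87.01, 94.7 and 34.7 CPM at 9 h, a difference of -0.91 (SE 0.40). Ywhab went the other way, from 962, 739 and 884 CPM to 1247, 1020 and 1274 CPM, a difference of 0.45 (SE 0.18). Libraries 16 and 18, of few T positions per read, are 2 of the 3 libraries at 9 h. Without the 6 such libraries the differences were -0.70 for Ywhae, -0.54 for Ywhaq and 0.21 for Ywhab.

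The members differed widely in how fast they lost label. At the end of labeling, mean T>C rates of the 6 genes lay close together within each state, at 1.13 to 1.41% at D0 and 4.82 to 5.40% at D6. Single libraries of Ywhah at D6 did not, with an SD of 4.13. By 9 h after removal the mean rates ranged from a small share of the starting rate for Ywhah and Ywhag to most of it for Ywhae at D0. Rates per covered T position can be compared between genes, and all values here are descriptions.

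At D0, Ywhae had rates of 1.21, 1.26 and 1.25% at 0 h and 0.887, 0.905 and 0.977% at 9 h. The share left, relative to the mean rate at 0 h, was 74.6% ± 3.84 (SD of the 9 h libraries, n = 3, as for the other shares, which leaves out the spread at 0 h), above 90.4% of transcripts. At D6 the rates were 5.54, 5.53 and 4.59% at 0 h and 1.62, 0.916 and 1.62% at 9 h, and 26.5% ± 7.75 was left, above 77.8% of transcripts. The D0 shares were all above the D6 shares. Without 4sU the rate at D0 was 16.8% of that at 0 h, the most of any member, and with this background subtracted the share left was 69.5% ± 4.61 at D0 and 23.7% ± 8.04 at D6.

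Ywhag lay at the other end. Its D0 rates were 1.13, 1.23 and 1.04% at 0 h and 0.0987, 0.0980 and 0.0866% at 9 h, so that 8.33% ± 0.598 was left (SD, n = 3). At D6 they were 5.27, 6.48 and 4.14% at 0 h and 0.620, 0.312 and 0.336% at 9 h, so that 7.97% ± 3.23 was left. The D6 shares, 5.89 to 11.7%, enclosed those at D0, 7.64 to 8.70%. With the rate without 4sU subtracted, 5.74% ± 0.615 was left at D0 and 7.26% ± 3.26 at D6.

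Ywhah also kept little label, 8.32% ± 4.56 at D0 and 3.17% ± 4.72 at D6. Its D6 libraries lay at 0.311 to 8.61%, and the highest share was 15.4% when library 8 was left out of the 0 h mean. Its D6 rates at 0 h were 2.80, 10.2 and 3.23%, over 6923, 4869 and 526 covered T positions, the widest spread of any member. At 9 h they were 0.465, 0.0317 and 0.0168%. By the share of reads with a conversion, Ywhag kept 8.57% at D0 and 13.4% at D6, and Ywhah 9.15 and 6.82%. At D6 all members but Ywhaz kept more by that measure than by T>C rate.

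Ywhaq kept 47.3% ± 12.5 at D0 and 15.8% ± 10.8 at D6, or 42.2 and 15.04% with background subtracted. The libraries of the states did not overlap, at 36.002 to 60.7% and 3.60 to 24.02%. Ywhaz kept 39.6% ± 1.53 at D0 and 28.4% ± 3.68 at D6, without overlap, and Ywhab 30.2% ± 6.52 and 16.95% ± 2.91, also without overlap. With Ywhae, 4 of the 6 members thus had all D6 libraries below all D0 libraries, as had 13.7% of 13094 transcripts, whereas 3.84% had them all above. These 4 also did so with each 0 h library left out of the mean. Medians over all transcripts with a value were 16.5% at D0 and 11.3% at D6.

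In the order of the label left at D0, Ywhah and Ywhag could not be separated by their libraries, and neither could Ywhaz and Ywhaq. Ywhag and Ywhab, Ywhab and Ywhaz, and Ywhaq and Ywhae did not overlap, but Ywhab and Ywhaz did when library 26 was left out of the 0 h mean, and Ywhaq and Ywhae when library 25 was. At D6 the order was Ywhah, Ywhag, Ywhaq, Ywhab, Ywhae and Ywhaz, and every pair of neighbors overlapped.

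**Figure D3:**
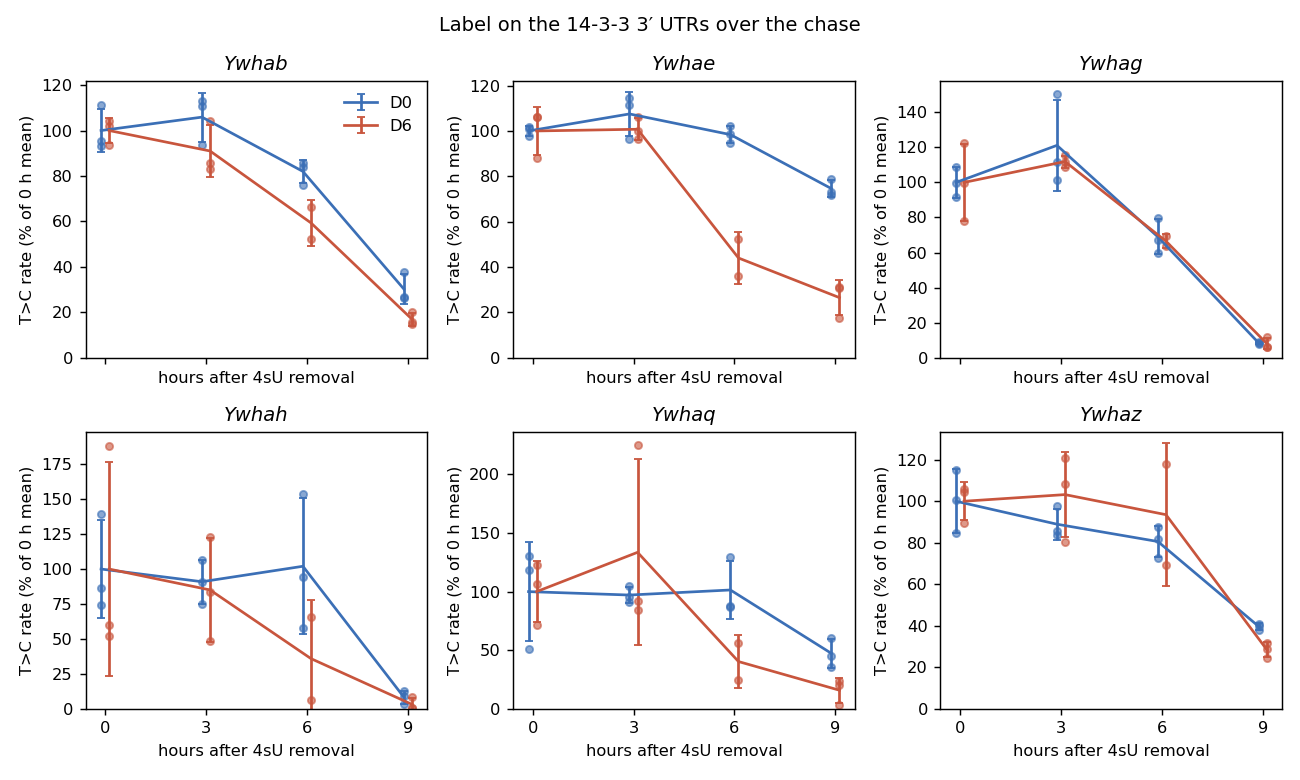
T>C rate of each gene as a percentage of its mean at 0 h, against hours after 4sU removal, with points for libraries and lines and bars for means ± SD (n = 3, or 2 at 6 h in D6), D0 in blue and D6 in red. Ywhae stays at 74.6% at 9 h in D0 and falls to 26.5% in D6, whereas the curves of Ywhag end at 8.33 and 7.97%.

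With all libraries, slopes of the log2 rate over all time points were steepest for Ywhag and Ywhah in both states. They were shallowest for Ywhae at D0 and Ywhaz at D6. At D0 they were -0.05 per hour for Ywhae (SE 0.031), -0.10 for Ywhaq (SE 0.088), -0.14 for Ywhaz (SE 0.047), -0.18 for Ywhab (SE 0.045), -0.27 for Ywhah (SE 0.154) and -0.36 for Ywhag (SE 0.092). At D6 they were -0.19 for Ywhaz (SE 0.051), -0.24 for Ywhae (SE 0.033), -0.28 for Ywhab (SE 0.046), -0.34 for Ywhaq (SE 0.0997), -0.39 for Ywhag (SE 0.093) and -0.54 for Ywhah (SE 0.162). Medians of the members were -0.16 and -0.31, against -0.26 and -0.36 over all transcripts.

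All 6 slopes were steeper at D6, with a median difference of -0.14 against -0.10 over all transcripts. The difference was -0.19 for Ywhae (SE 0.045), -0.24 for Ywhaq (SE 0.131) and -0.26 for Ywhah (SE 0.224). It was -0.10 for Ywhab (SE 0.064), -0.05 for Ywhaz (SE 0.069) and -0.02 for Ywhag (SE 0.130). Without the 6 libraries of few T positions per read it was -0.20 for Ywhae, -0.16 for Ywhaq, -0.15 for Ywhah and -0.03 for Ywhab. For Ywhag it was then 0.15 and for Ywhaz 0.04, so that this pair changed sign. Libraries 16 and 18 are among the 6, so the 9 h point at D6 then rests on library 17 alone. The D6 slopes were then -0.43 for Ywhah, -0.26 each for Ywhaq, Ywhae and Ywhag, -0.22 for Ywhab and -0.11 for Ywhaz. In that setting Ywhag was no longer steeper than Ywhaq and Ywhae.

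Few members gave a decay half-life under the study's criteria, an R squared over 0.6 and a half-life up to 5000 min. At D0 only Ywhaz did, at 617 min (SE 107). At D6 Ywhab did, at 364 min (SE 68.1), and so did Ywhae, at 393 min (SE 82.2). With the hours of the sample labels these were 436 min (SE 50.4), 236 min (SE 24.9) and 254 min (SE 45.9). Over the 6 genes, mean rates at 3 h were still 85.04 to 134% of those at 0 h. With 0 and 9 h only, 5 genes met the criteria in each state. Ywhae was then at 1276 min (SE 93.9) at D0 and 282 min (SE 38.1) at D6, and Ywhag at 151 min (SE 23.006) and 148 min (SE 59.7).

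Uptake of label ran partly in the reverse order. After 9 h of 4sU at D0, Ywhag had reached 131% ± 26.2 of its rate after the full labeling period (SD, n = 3), with libraries at 103 to 155%. Ywhaz had reached 58.1% ± 4.70, Ywhaq 63.9% ± 10.97, Ywhae 72.3% ± 5.42, Ywhab 82.1% ± 3.30 and Ywhah 87.2% ± 1.18. No library of Ywhag overlapped with those of the other members, except with those of Ywhah when library 26 was left out of the 0 h mean. The median over all transcripts was 93.3%.

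At D6 the members reached 56.2 to 88.1%, against a median of 71.9% over all transcripts. Ywhae was at 75.5% ± 2.03 and Ywhaz at 71.1% ± 2.89, whereas Ywhah, at 56.2% ± 43.1, and Ywhab, at 69.99% ± 36.3, spread widely. Their lowest values, 6.99% for Ywhah and 30.03% for Ywhab, came from library 53. Synthesis half-lives met the criteria for all 6 genes at D0, from 211 min for Ywhag (SE 72.9) to 717 min for Ywhaz (SE 138). At D6 they did so for Ywhag at 385 min (SE 89.3), Ywhaq at 435.5 min (SE 112) and Ywhaz at 527 min (SE 97.8). The fitted curve cannot exceed the rate after full labeling, as Ywhag did at D0, so its half-life there is poorly defined. With 0 and 9 h only it was 16.1 min, with an SE of 1.66e+08. With background subtracted, 5 genes met the criteria at D0 and 2 at D6, and Ywhaq in neither state.

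**Figure D4:**
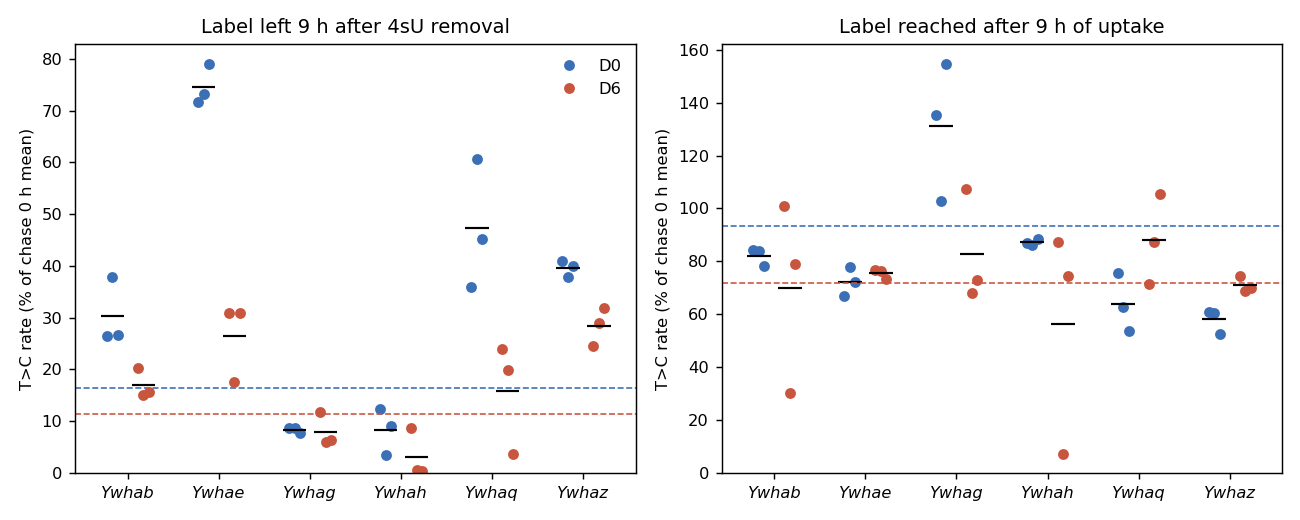
T>C rate of each gene 9 h after 4sU removal (left) and after 9 h of uptake (right), as a percentage of its mean at 0 h of the chase, with 1 point per library, lines for means, D0 in blue, D6 in red and dashed lines for the median over all transcripts. Ywhae at D0 keeps the most label, 74.6%, and Ywhag at D0 reaches the most during uptake, 131%.

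Across the 47 libraries, log2 CPM of Ywhae and Ywhaq had a Pearson's r of 0.69, which was 0.33 without the 6 libraries of few T positions per read. Ywhab had r of 0.58 with Ywhaz, 0.52 with Ywhag and -0.63 with Ywhae. Without those 6 libraries these were 0.55, 0.55 and -0.44. Among 8443 3′ UTRs with a mean of at least 10 CPM, the genes most alike to Ywhae were Eef1a1 (r = 0.87) and Pfn1 (0.79), and those most alike to Ywhaq were Eef1a1 (0.73) and Ost4 (0.70). Cox4i1 and Rab14 (both 0.82) were most alike to Ywhab, Rab6a and Arid1b (both 0.79) to Ywhag, Cyb5a (0.73) and Gtf2i (0.67) to Ywhah, and Rab5c (0.73) and Uba1 (0.67) to Ywhaz. The values with other genes are over all 47 libraries, those of few T positions included. Libraries share state, treatment and depth, and these values are descriptions.

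Of a list of 50 genes whose proteins are known 14-3-3 partners, 47 had reads in the libraries without 4sU and passed the filter, with a median log2 difference of 0.03 between D6 and D0, each gene taken by its transcript of smallest p, against -0.06 over 12367 genes taken in the same way. By edgeR 4 of the 47 rose and 1 fell, against 6.16% and 4.27% of those genes. Counts this small do not set the list apart from all genes, and the partners below are named only because they were called. The list was chosen with earlier results of these data known. Cdkn1b, a cyclin-dependent kinase inhibitor, rose from 87.3 ± 33.5 CPM at D0 to 265 ± 98.5 CPM at D6 (SD, n = 3), a log2 difference of 1.60 (SE 0.38, edgeR adjusted p = 0.0020). Rnd3 rose by 2.86 (SE 0.44, edgeR adjusted p = 1.7e-06), and Ulk1, a kinase that starts autophagy, by 2.82 (SE 0.66, edgeR adjusted p = 0.0017). Kcnk3, a potassium channel whose surface transport involves 14-3-3, rose from 0.111 ± 0.101 to 20.4 ± 7.44 CPM (edgeR adjusted p = 0.023). Map3k5, a stress-activated kinase, fell from 44.7 ± 24.5 to 0.0844 ± 0.0774 CPM (edgeR adjusted p = 3.9e-05).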

How the data were processed

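SLAM-seq libraries were grouped by their labels. Library numbers are not shared between groups, so none were paired. The series calls the libraries of a group biological replicates, and says no more on their source. Reads were mapped to mm10 and T>C conversions counted over 3′ UTRs with SLAMdunk 0.3.3 by the authors. The deposited files hold counts of reads, covered T positions and conversions per 3′ UTR, and also CPM and a conversion rate as a fraction, both made by the authors. Only the deposited counts were used. Reads carry no molecular identifiers, so errors are between libraries.

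Of 39419 rows with 30432 distinct intervals, 28190 mRNA transcripts were kept, 28059 of them with a symbol from RefSeq (GRCm38.p6). Transcripts that share an interval stayed as separate rows.

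Reads were fitted over all 47 libraries in R 4.3.3 with edgeR 4.0.16 (filterByExpr, TMM, quasi-likelihood test, Benjamini-Hochberg adjustment at 0.05 over 20699 transcripts). A group with no reads in both arms has a difference of exactly 0, and 1336 such transcripts were left out of medians for D6 against D0, and their like elsewhere. Conversions were fitted with the log of covered T positions as offset, for the 14426 transcripts that averaged 1000 or more covered positions per library. Half-lives were fitted with scipy 1.17.1. DESeq2 1.42.0 and limma 3.58.1 were alternatives. Fits that leave out a library kept the trended dispersions of the full fit, and leaving out the 6 libraries of fewest covered T positions per read was added after the data were seen.

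The genes, partner list and comparisons were chosen with earlier results of these data known. Read, conversion and slope differences of the genes are given with the SE of the fit and no test, because the choice used these values, although tests of reads within a state had been planned. The test was used for partners and markers. Named genes were all members and Sfn, the 4 largest rises and 4 largest falls among called partners, and the 2 genes of highest Pearson's r with each member. For a partner with several transcripts, that with the smallest p was used. On simulated data, the read test recovered 1% of log2 changes of 1 and 14% of those of 2 for labeling against none at D6 (20148 features), and the slope test 0% of differences of 0.4 (14426 features), with medians of the estimates near the simulated sizes. Figures were drawn with matplotlib 3.10.9.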

Additional observations from a re-analysis of the deposited data

How the results depend on the processing

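No paired analysis was possible because the library numbers are unique and no number is shared between groups. The median difference of the members between states in reads (0.09), in decay slope (-0.14 per hour) and in uptake (-0.08) moved by less than the spread between libraries or its SE under each alternative run, but the medians of reads and uptake lie near 0 and changed sign. The reads median ran from -0.05 without library 57 to 0.08 by DESeq2 and was below 0 under 3 of 10 alternatives. The slope median ran from -0.17 to -0.09 and stayed below 0. The uptake median ran from -0.27 without library 52 to 0.16 without library 8 and was above 0 under 3 of 15 alternatives. Within a state, the median read difference after full labeling changed sign under 1 of 10 alternatives at D0 (-0.04 to 0.15) and 3 of 10 at D6 (-0.07 to 0.12). After 9 h of uptake it stayed above 0 under the 10 alternatives run in each state, at 0.10 to 0.22 at D0 and 0.28 to 0.65 at D6. Between 0 and 9 h of the chase it stayed below 0 at D0 (-0.24 to -0.08) and above 0 at D6 (0.19 to 0.40). Ywhab at D0 differed by -0.20 over the chase, which was 0.040 without the 6 libraries of few T positions and 0.038 without library 26, one of them, and its range with each library left out was -0.32 to 0.04. The cause was not tested. Ywhah at D6 had a log2 ratio of 9 h uptake to full labeling of -0.85, which was 0.014 without library 8 of the full labeling group and -1.32 without library 52 of the uptake group, the ends of its range.

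Genes meeting the half-life criteria were 1 for decay at D0, 2 for decay at D6, 6 for synthesis at D0 and 3 for synthesis at D6. With the hours of the sample labels they were 4 for decay at D0, 4 for decay at D6 and 5 for synthesis at D6, and with 0 and 9 h only 5 in each of these 3. Leaving out each library gave 1 to 3, 2 to 4, 3 to 6 and 2 to 5 in the same order. Depth limits Ywhah most, with 24 reads in its shallowest library.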
